A study of Mus musculus with 4 samples.

Results

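Chromatin accessibility was examined at the genes of 7 zinc finger repressors, namely Bcl6, Zeb1, Zeb2, Prdm1 (which encodes Blimp1), Ikzf1 (Ikaros), Ikzf2 (Helios) and Gfi1, in resting and IL-4-stimulated macrophages. ATAC-seq uses the Tn5 transposase to tag open DNA, so that accessible sites appear as peaks. Wild-type mouse bone marrow-derived macrophages (BMDMs) from animals of 8 to 12 weeks had been differentiated for 6 days in L929 supernatant, which supplies the growth factor M-CSF. The 4 libraries comprised 2 of untreated control cells and 2 of cells exposed to 20 ng/ml IL-4 for 1 h. Both groups were wild type and carried the same differentiation treatment, and BMDMs are a culture model in which stray cells of other types can persist. The methods call the replicates biological, but neither they nor the labels say whether those of a group came from separate animals, so the tests below measure only the spread between libraries.

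Overlapping peaks of any of the 4 libraries (1 bp or more) were joined into 60710 regions on chromosomes 1 to 19, X and Y, and each region took the gene name that the authors' annotation had given to its highest peak. By that rule 87 regions belonged to the repressor genes, with 28 at Prdm1, 21 at Bcl6, 15 each at Zeb2 and Ikzf1, and 4 each at Ikzf2 and Gfi1. Zeb1 had no region, because the annotation gave the peaks inside that gene to Gm10125, an RNA gene whose TSS (transcription start site) lies closer. Peak height is the score in the deposited lists, read here as −log10 of the q-value of the peak caller. It is evidence for a peak within its own library rather than a read count, and a library listed without a peak had none above the caller's limit, which does not show that the site was closed. A log2 change below is a change of this score and not a fold of accessibility.

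The libraries held between 39462 and 45250 peaks, and IL-4 replicate 2 had the fewest peaks and the lowest median height (6.41, against 7.46 to 8.04 in the other libraries). Heights therefore tended to be lower in IL-4 replicate 2 at any gene, and this stands beside each comparison of deposited heights below. Of 12 macrophage marker genes, 9 had a promoter peak in all 4 libraries, among them Cd68 and Lyz2. Promoter peaks in all 4 libraries were found for 1 of 6 T cell genes (Cd28), 1 of 6 B cell genes (Ebf1), 1 of 6 neutrophil genes (S100a8), 0 of 4 dendritic cell genes and 0 of 5 fibroblast genes. The defining markers Cd3e, Ly6g and Col1a1 had no promoter peak in any library.

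All 7 proteins bind DNA through zinc fingers and silence genes by recruiting corepressors. BCL6 is a BTB zinc finger protein best known for holding B cells in the germinal centre state, and in macrophages it restrains inflammatory genes. Blimp1 drives B cells to become plasma cells, and BCL6 and Blimp1 repress each other's genes. ZEB1 and ZEB2 bind E-box sequences and are known for silencing E-cadherin, and ZEB2 also maintains the identity of tissue macrophages. Ikaros and Helios are lymphoid regulators that work with the NuRD complex, and GFI1 steers myeloid progenitors toward granulocytes together with the demethylase Kdm1a. IL-4 acts through STAT6, which binds the palindrome TTCNNNNGAA, whereas most other STAT proteins prefer a spacer of 3 bases and BCL6 binds the related letters TTCCTNGAA.

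The sequences of 6 regions are shown first, because in each of them both IL-4 libraries had higher peaks than both control libraries and the window held the STAT6 letters. They are 121 bp on the plus strand of mm10 (read from GRCm38.p6, the same assembly), written 5′ to 3′. Capitals mark each match to the STAT6 letters and, in the last pair of sequences, also a match to the BCL6 letters, which comes after the STAT6 match.
Zeb2 upstream region, chr2:45126532-45126652: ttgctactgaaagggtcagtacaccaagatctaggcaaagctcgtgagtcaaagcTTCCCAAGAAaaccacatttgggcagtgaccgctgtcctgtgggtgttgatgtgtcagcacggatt
Ikzf1 intron 3 region, chr11:11717824-11717944: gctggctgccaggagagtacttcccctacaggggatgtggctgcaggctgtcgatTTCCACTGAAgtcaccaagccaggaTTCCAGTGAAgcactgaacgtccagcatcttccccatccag
Bcl6 upstream region, chr16:23993355-23993475: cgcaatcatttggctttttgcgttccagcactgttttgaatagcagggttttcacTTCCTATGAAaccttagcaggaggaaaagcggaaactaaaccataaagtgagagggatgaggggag
Gfi1 upstream region, chr5:107763829-107763949: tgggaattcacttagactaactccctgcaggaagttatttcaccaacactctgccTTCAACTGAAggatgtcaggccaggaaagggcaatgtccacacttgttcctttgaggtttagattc
Prdm1 intron 3 region, chr10:44449733-44449853: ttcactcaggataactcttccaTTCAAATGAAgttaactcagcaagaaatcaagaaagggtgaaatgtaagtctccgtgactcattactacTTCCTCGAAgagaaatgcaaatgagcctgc
Prdm1 distal region, chr10:44657720-44657840: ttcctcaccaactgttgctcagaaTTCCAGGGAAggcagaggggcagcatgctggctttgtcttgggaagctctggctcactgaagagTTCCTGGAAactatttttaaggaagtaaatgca
The Ikzf1 sequence held 2 matches, and both Prdm1 sequences held 1 match to the STAT6 letters and 1 to the BCL6 letters. For contrast, the Zeb2 regions with the highest peak and with the largest decrease in height held no match in their 300-bp windows, and 121 bp around their peak centres are given without capitals.
Zeb2 region of the highest peak, chr2:45262086-45262206: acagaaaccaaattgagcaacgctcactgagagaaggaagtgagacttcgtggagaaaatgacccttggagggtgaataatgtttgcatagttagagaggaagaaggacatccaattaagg
Zeb2 region of the largest decrease, chr2:45197536-45197656: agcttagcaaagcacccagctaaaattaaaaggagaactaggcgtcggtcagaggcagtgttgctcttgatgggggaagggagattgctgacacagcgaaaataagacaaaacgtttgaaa

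By the authors' annotation, most regions given to these genes lay far from a promoter. Of the 87 regions, 70.1% were intergenic, 24.1% intronic and 4.60% in a promoter, whereas over all 60710 regions the shares were 35.8%, 40.2% and 18.8%. RefSeq places some of the 87 otherwise. The intergenic regions at Ikzf2 −1313 bp and Zeb2 −4087 bp cover the RefSeq start of their gene. Those at Prdm1 −15746 and −68650 bp lie inside RefSeq Prdm1. Peaks inside Zeb1 and most of those inside Zeb2 carry other gene names and are not counted in these shares. Of the 13 regions inside Ikzf1, 11 carry its name. The median distance to the TSS was 83476 bp, against 14419 bp over all regions, and 43.7% of the regions lay beyond 100 kb, against 11.1% overall. Peaks were present in all 4 libraries at 30 regions (34.5%, against 41.9% of all regions), in 3 libraries at 14, in 2 at 13 and in 1 at 30.

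**Figure D1:**
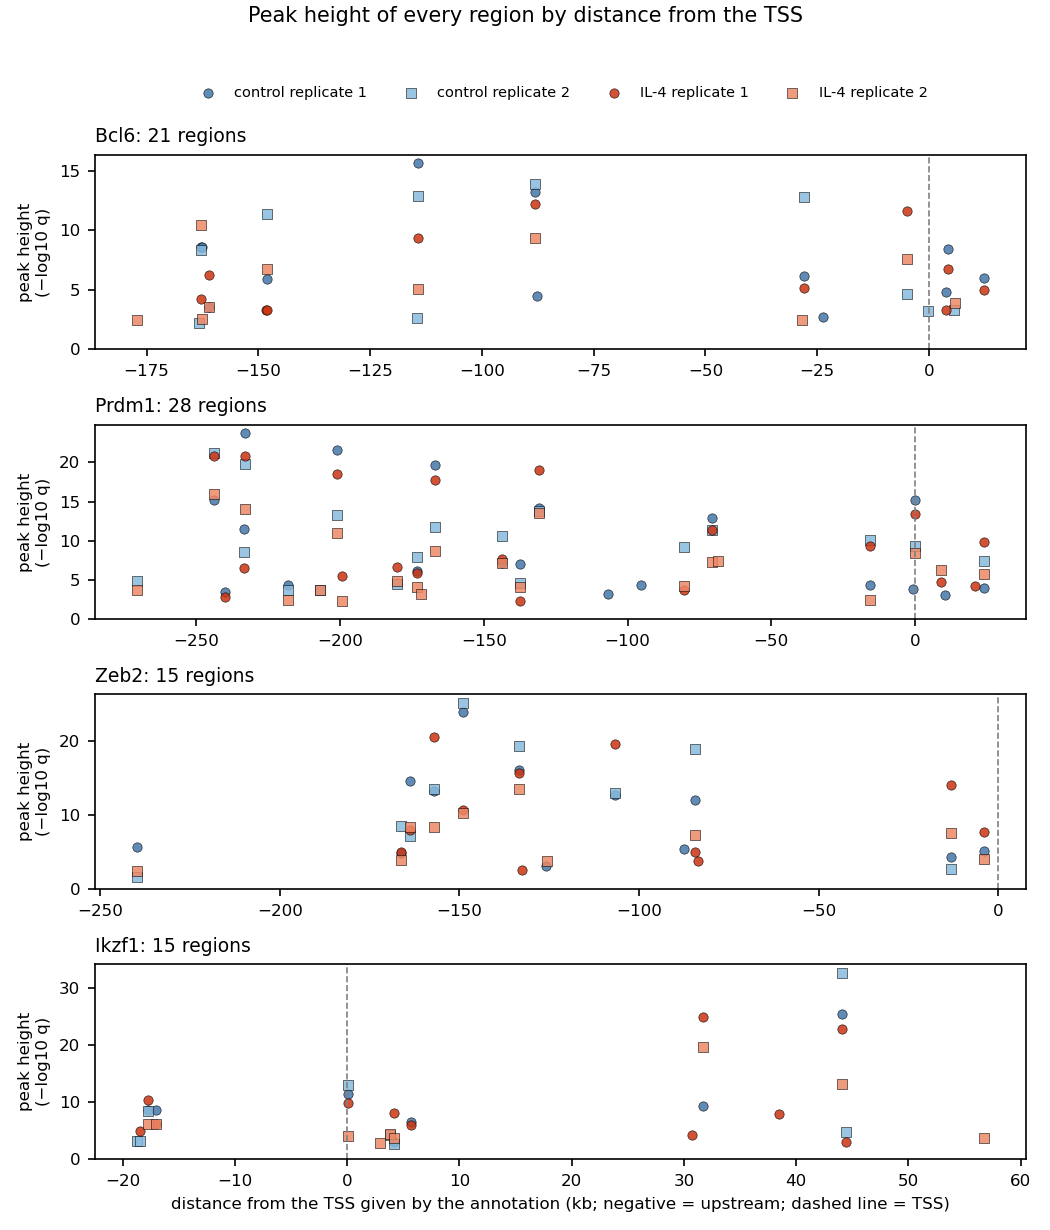
Peak height (−log10 q, vertical axis) of each library at every region of Bcl6, Prdm1, Zeb2 and Ikzf1 against the distance from the annotated TSS in kb (horizontal axis), with control libraries in blue and IL-4 libraries in red, circles for replicate 1 and squares for replicate 2. Peaks of Bcl6, Prdm1 and Zeb2 extended as far as −177143, −270531 and −239709 bp, whereas the highest peaks of Ikzf1 lay inside the gene, 44086 bp downstream of the TSS.

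The first question was whether 1 h of IL-4 changed the height of sites that were already open. Where every library had a peak, heights were quantile-normalised on the log2 scale and compared with limma, with p-values adjusted over all 25442 such regions. None of the 30 regions of the repressor genes passed an adjusted p of 0.05 in either direction, where limma called 0.0157% of all regions higher and 0.00786% lower with IL-4. At an unadjusted p under 0.05, 4 of the 30 passed, 1 higher and 3 lower (13.3%, against 8.28% of all regions). The median log2 change of the 30 was −0.08, against 0.00 over all regions, and 12 of 30 were higher with IL-4. That median has no stable sign, since it was 0.03 without control replicate 2 and 0.08 over the 13 regions within 100 kb of a TSS. The median SE of a log2 change was 0.47, which limits what 2 libraries a group can resolve. In such pooled cells, a site open in fewer cells and a site less open in each cell cannot be told apart.

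**Figure D2:**
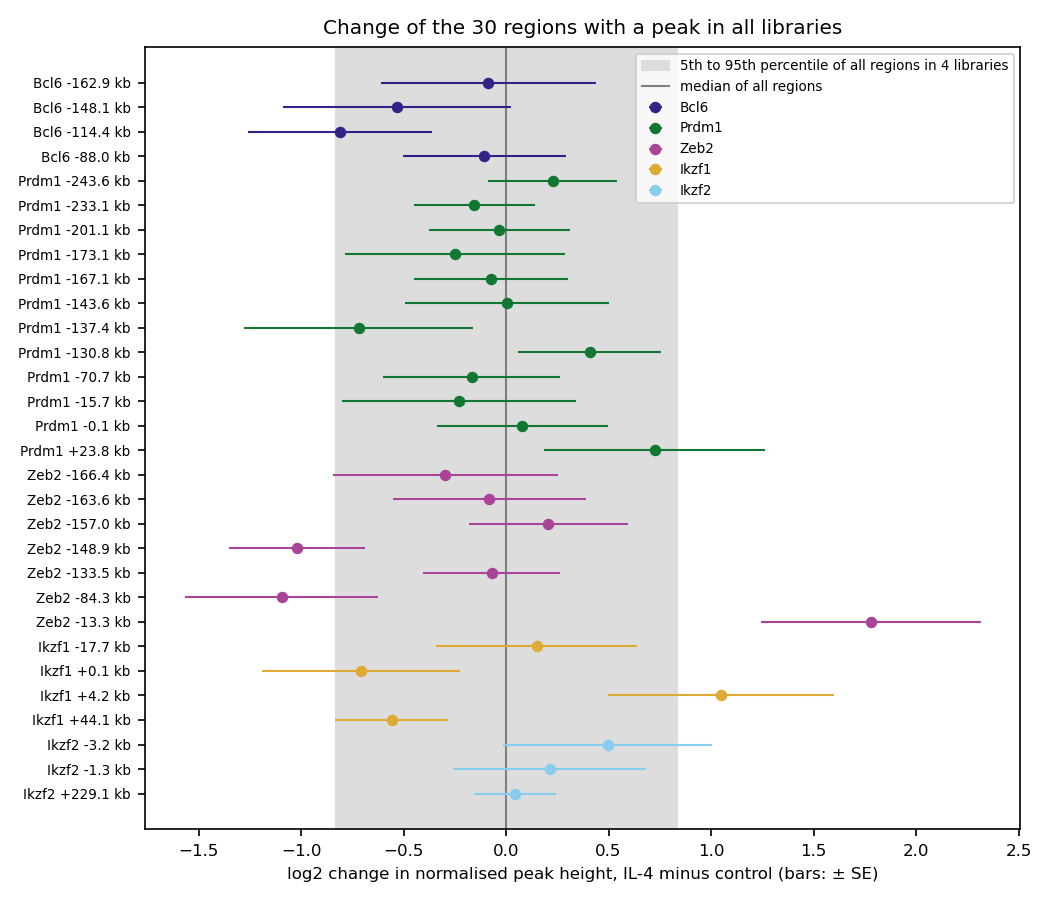
Log2 change in normalised peak height (horizontal axis, IL-4 minus control, bars ± SE) of the 30 regions open in every library, by gene and by distance from the TSS. The grey band spans the 5th to 95th percentile of all 25442 regions (−0.83 to 0.83), and only Zeb2 at −13.3 kb and Ikzf1 at +4.2 kb lie above it, while Zeb2 at −84.3 kb and −148.9 kb lie below it.

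The second question was whether peaks appeared or disappeared. A region with a peak in both IL-4 libraries and in neither control library is called IL-4-only. Such regions numbered 2 of the 87 (2.30%, where all regions gave 2.53%), both at Prdm1, and 0 of the 87 were control-only, where all regions gave 4.33%. The share of IL-4-only regions was close to that of the whole series. With 1 library left out, so that a group rested on a single library, the numbers were 6 to 10 IL-4-only and 2 to 9 control-only regions, and each of the 4 libraries moved them. These were 6.90 to 11.5% and 2.30 to 10.3% of the 87, where the same rule gave 4.30 to 9.37% and 7.21 to 13.7% of all regions. The control libraries had a peak at 55 and 50 of the repressor regions and the IL-4 libraries at 58 and 55. The difference of 4 was within the spread between libraries (control 52.5 ± 3.54, IL-4 56.5 ± 2.12, SD, n = 2 each; exact two-sided permutation p = 0.667, where 0.333 is the smallest p that 2 against 2 libraries can give). Per 10000 peaks of the library, however, the numbers were 12.2 and 11.9 in control and 13.8 and 13.9 with IL-4, which do not overlap (difference 1.83, exact permutation p = 0.333, the smallest possible).

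A wider count took the 57 repressor regions with a peak in at least 2 libraries and asked where the deposited heights of the groups did not overlap, with a missing peak placed below any peak. These regions are named below although they were chosen after their values were seen. Both IL-4 libraries stood above both controls at 9 of the 57 regions (10.8% of all such regions) and below both at 13 (29.3% of all such regions). Because heights ran lower in IL-4 replicate 2, the count was repeated after dividing each height by the median height of its library. It then gave 11 regions above (19.0% of all), which included the 9 of the first count, and 8 below (21.0% of all), all of them among the 13. The share of higher regions among those that did not overlap thus moved from 40.9% to 57.9% for the repressor genes and from 26.9% to 47.5% for all regions. The repressor shares were 15.8% and 22.8% in the first count and 19.3% and 14.0% in the second, not far from the background in either direction. With 1 library left out, 10 to 15 regions stood above and 16 to 26 below, with 15 above without control replicate 2 or IL-4 replicate 2 and 26 below without control replicate 2. As shares of the 87 regions these were 11.5 to 17.2% above and 18.4 to 29.9% below. Over all 60710 regions the same rule gave 5809 to 11713 above (9.57 to 19.3%) and 14496 to 22162 below (23.9 to 36.5%). The counts thus moved there as well.

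**Figure D3:**
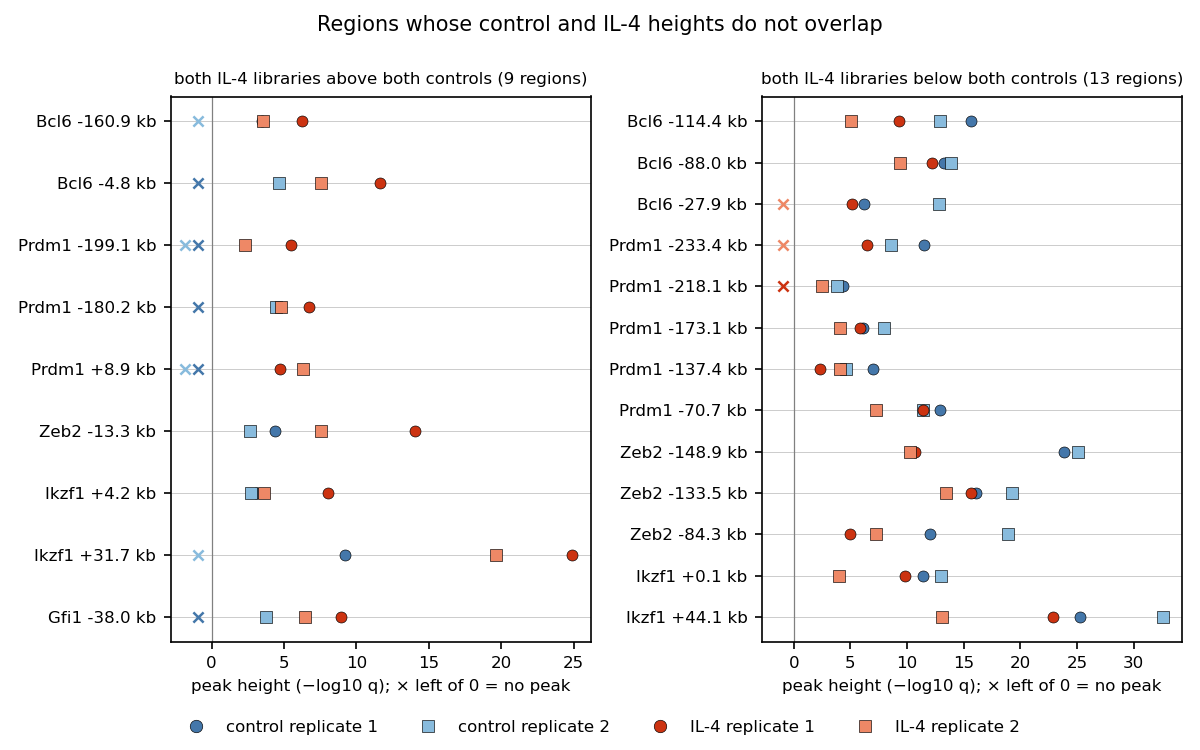
Deposited peak height (−log10 q, horizontal axis) in each library at the 9 regions where both IL-4 libraries stood above both controls (left) and the 13 where they stood below (right), with control in blue and IL-4 in red, circles for replicate 1 and squares for replicate 2, and a cross left of 0 for a library with no peak. The gap is wide at Zeb2 −13.3 kb, Ikzf1 +31.7 kb and Zeb2 −148.9 kb and as small as 0.01 at Bcl6 −160.9 kb.

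The STAT6 letters lay in more of the higher than of the lower regions, for the repressor genes as for all genes. The 300 bp around the highest peak were searched on both strands for the STAT6 letters TTCNNNNGAA. They were found in 16 of the 87 repressor windows (18.4%, 95% Wilson interval 11.6 to 27.8%) and in 5494 of all 60710 (9.05%). Of the 9 regions higher in both IL-4 libraries 6 held them (66.7%, interval 35.4 to 87.9%), and of the 13 lower regions 0 did (interval up to 22.8%). Over all genes the letters were in 24.9% of the 4626 higher regions and 4.86% of the 12544 lower ones, and in 34.3% of the IL-4-only regions, so the direction is shared with the rest of the genome. After median scaling the numbers were 6 of 11 and 0 of 8, where over all genes 18.6% of 8111 higher and 4.61% of 8958 lower regions held the letters. The stricter palindrome TTCCNNGGAA was in 1 of the 9 and in 3.96% of the higher regions of all genes. The Ikaros letters TGGGAA also split in these small counts and were in 7 of the 9 higher (77.8%) and 2 of the 13 lower repressor regions (15.4%), although over all genes they were in 26.5% and 24.9%. These intervals cover counting error only, and neighbouring regions of a gene are not independent.

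**Figure D4:**
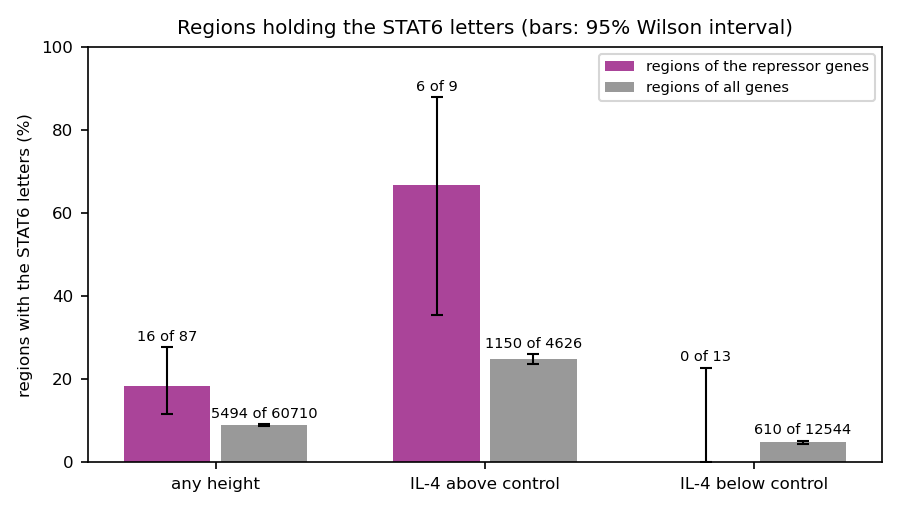
Share of regions (vertical axis, %) whose 300-bp window held the STAT6 letters, for the repressor genes (purple) and all genes (grey), over all regions and over those with both IL-4 heights above or below both control heights, with 95% Wilson intervals and the counts above each bar. The share was 66.7% of the 9 higher and 0% of the 13 lower repressor regions, against 24.9% and 4.86% over all genes.

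Among regions open in every library, the 4 repressor regions whose window held the STAT6 letters had a median log2 change of 0.44. The 26 without had −0.08. Over all genes the medians were 0.20 for 1979 regions and −0.02 for 23463. At Prdm1 +23789 bp, with a change of 0.72, the match lay in the window but outside the region itself. The changes at the other repressor regions with the letters were 1.78, 0.15 and −0.16. Over the 87 windows, other letters were compared with all regions in the same way. The 3-base spacing TTCNNNGAA was found in 21.8% of the 87 windows (8.93% of all), the BCL6 letters TTCCTNGAA, which are a subset of it, in 4.60% (1.94%) and the PU.1 letters GAGGAAGT, of the macrophage master regulator, in 18.4% (10.4%). The AP-1 letters TGANTCA were in 26.4% (23.3%), the ZEB letters CAGGTG in 10.3% (12.7%), the Blimp1 letters GAAAGTG in 10.3% (5.97%), the Ikaros letters TGGGAA, which can overlap the STAT6 letters, in 31.0% (25.5%) and the GFI1 letters AAATCAC in 3.45% (3.52%). A match describes the letters of a window and is not a binding site.

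At Bcl6 the promoter was almost without signal. The region at −285 bp had a peak of 3.20 in control replicate 2 and none in the other libraries, and 5 intronic regions had peaks in 1 or 2 libraries each, none above 8.4. Thus no region inside Bcl6 was open in all 4 libraries. The nearest region with a peak in more than 2 libraries lay at −4825 bp (chr16:23993296-23993545, inside the RefSeq gene Gm31527). It had no peak in control replicate 1, 4.68 in control replicate 2, and 11.6 and 7.58 in the IL-4 libraries. Both IL-4 heights were thus above both controls, and this is the window with TTCCTATGAA.

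The tallest Bcl6 sites were distal, and the highest of them had lower peaks with IL-4. The highest peak of the gene lay at −114402 bp (chr16:24102934-24103133) with 15.67 and 12.89 in control and 9.33 and 5.05 with IL-4. Its log2 change was −0.81 ± 0.45 (SE), with an adjusted p of 0.649 by limma, and from −1.09 to −0.53 under the alternatives run. The next highest, at −88038 bp, had 13.25 and 13.84 against 12.19 and 9.34 (−0.11 ± 0.40), which overlapped after division by the median of each library. The sites at −148129 bp (5.88 and 11.35 against 3.34 and 6.76) and −162918 bp (8.63 and 8.36 against 4.23 and 10.44) overlapped as deposited. All 4 Bcl6 regions with peaks in every library had negative changes, with a median of −0.32, and none passed the test. At −27877 bp the control heights were 6.20 and 12.82, IL-4 replicate 1 had 5.13 and IL-4 replicate 2 had no peak. The region at −160942 bp counted as higher by a narrow margin, with 3.52 and no peak in control and 6.25 and 3.53 with IL-4.

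Prdm1 had the most regions and the 2 IL-4-only ones. The region in intron 3 at +8887 bp (chr10:44449711-44450069) had no peak in either control library and heights of 4.70 and 6.29 with IL-4. Its window held TTCAAATGAA, the AP-1 letters and, further on, TTCCTCGAA, a match to the BCL6 letters that overlaps PU.1 letters on the minus strand. The distal region at −199117 bp (chr10:44657687-44657873, inside the RefSeq gene Gm35154) had heights of 5.51 and 2.32 with IL-4 and none in control. Its window held TTCCAGGGAA, the stricter STAT6 palindrome, and TTCCTGGAA, again the BCL6 letters. These were 2 of the 4 repressor windows with the BCL6 letters, and the other 2 lay at Bcl6 itself and had a peak in 1 library each.

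At the main Prdm1 promoter region the groups overlapped. The region at −107 bp (chr10:44458542-44458953) had heights of 15.26 and 9.32 in control and 13.47 and 8.5 with IL-4 (log2 change 0.08 ± 0.42 SE, adjusted p 0.981 by limma). A second promoter region, at −803 bp, had a peak of 3.89 in control replicate 1 only. RefSeq puts the 5′ end of the gene at chr10:44528558. Beside it, the region at −70743 bp (chr10:44529273-44529607) had 12.92 and 11.45 in control and 11.41 and 7.30 with IL-4 (−0.17 ± 0.43). The highest Prdm1 peak, at −233104 bp (chr10:44691583-44691952), had 23.77 and 19.85 in control and 20.82 and 14.01 with IL-4. The heights of this peak overlapped between groups (log2 change −0.16 ± 0.29), although its window held the STAT6 letters TTCACTTGAA. The largest increase among the Prdm1 regions open in all libraries was at +23789 bp, past the end of the gene (chr10:44434750-44434958), with 4.0 and 7.46 in control and 9.84 and 5.75 with IL-4 (log2 change 0.72 ± 0.54, adjusted p 0.775 by limma). The largest decrease was at −137428 bp (chr10:44595975-44596193), with 7.03 and 4.64 against 2.35 and 4.06 (−0.72 ± 0.56, adjusted p 0.787 by limma). Without control replicate 1 the increase was 0.13, and without IL-4 replicate 1 the decrease was −0.10. Neither came near the threshold, and the 12 Prdm1 changes had a median of −0.05 with 5 of 12 positive.

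A Prdm1 region at −130850 bp is shown, chosen after its letters were seen, because its window held the Blimp1 letters 4 times. As many or more matches were found in 4 of all 60710 windows. Capitals mark GAAAGTG in these 151 bp of the plus strand of mm10.
Prdm1 region with repeated BLIMP1 letters, chr10:44589492-44589642: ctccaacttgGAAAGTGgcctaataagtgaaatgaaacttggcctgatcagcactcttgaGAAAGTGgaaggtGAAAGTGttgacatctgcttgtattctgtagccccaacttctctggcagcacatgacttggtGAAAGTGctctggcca
The region (chr10:44589221-44589700) had heights of 14.25 and 13.83 in control and 19.0 and 13.5 with IL-4. These overlap as deposited, and the IL-4 libraries stood above both controls once heights were divided by the median of the library. The quantile-normalised heights used for limma were also apart, with 12.3 and 13.6 in control and 18.3 and 16.2 with IL-4. The log2 change was 0.41 ± 0.35 (SE), with an adjusted p of 0.811 by limma.

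Zeb2 held the largest increase and the largest decreases among the 30 regions open in every library. The region at −13279 bp (chr2:45126447-45126736) had 4.38 and 2.66 in control and 14.03 and 7.58 with IL-4. Both IL-4 peaks were higher than both control peaks, and the log2 change of 1.78 ± 0.54 (SE) was the largest of the 30 regions. It had an unadjusted p of 0.00159 and an adjusted p of 0.270 by limma, and from 0.179 to 0.799 under the alternatives run, so it did not pass. Its window carried TTCCCAAGAA beside AP-1 letters.

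Further upstream, some Zeb2 heights were lower with IL-4. At −148867 bp (chr2:45261975-45262346, inside the RefSeq gene Vis1) the control heights were 23.87 and 25.05 and the IL-4 heights 10.67 and 10.29. The groups were well apart at this site, the highest of Zeb2, with a log2 change of −1.02 ± 0.33 (SE) and an adjusted p of 0.321 by limma. At −84317 bp (chr2:45197374-45197741) the heights were 11.99 and 18.88 in control and 4.99 and 7.24 with IL-4 (−1.10 ± 0.47, adjusted p 0.538 by limma). This change ranged from −1.55 to −0.64 with 1 library left out, the latter without IL-4 replicate 1. At the sites between and beside them, at −133478, −157030, −163621 and −166367 bp, the changes were −0.07, 0.21, −0.08 and −0.30. Of these only the region at −133478 bp was lower in both IL-4 libraries (16.1 and 19.29 against 15.65 and 13.45), and it overlapped after division by the median of each library. The region closest to the annotated TSS, at −4087 bp (chr2:45117165-45117568), covers the start of Zeb2 in the RefSeq annotation and had 5.12 and no peak in control and 7.70 and 4.13 with IL-4. These overlap as deposited, while after division by the median of each library both IL-4 heights (0.69 and 0.47) were above the control height (0.41, and no peak). Only at −13279 bp and at a site with a single peak did a Zeb2 window hold the STAT6 letters.

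Inside the gene bodies of the ZEB genes, regions counted under other names gave further values. Zeb1 contained 4 regions, all named Gm10125. The intron 2 region had heights of 10.38 and 7.46 in control and 16.31 and 12.59 with IL-4, which do not overlap (log2 change 0.93 ± 0.42 SE, adjusted p 0.553 by limma). A tall peak in intron 1 had 28.38 and 21.78 against 24.26 and 20.04 (−0.01), and the other intron 1 site had 10.85 and 6.03 against 10.98 and 4.21 (−0.01). Within Zeb2, intron 2 held a peak of 30.96 and 29.30 in control and 34.32 and 22.49 with IL-4 (0.01), named Mir5129, which was taller than any region named Zeb2. Another region inside Zeb2, named Gm13476 and annotated as a promoter, had 11.82 and 5.91 in control and 5.58 and no peak with IL-4, so that both IL-4 libraries were below both controls.

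The tallest of the 9 regions higher in both IL-4 libraries lay in Ikzf1. In intron 3 at +31655 bp (chr11:11717749-11718020) the heights were 9.22 in control replicate 1, none in control replicate 2, and 24.87 and 19.66 in the IL-4 libraries. This is the window with TTCCACTGAA and TTCCAGTGAA, and as control replicate 2 had no peak it was not part of the limma test. In intron 1 at +4189 bp (chr11:11690206-11690482) the heights were 3.05 and 2.72 in control and 8.06 and 3.61 with IL-4, again apart (log2 change 1.05 ± 0.55 SE, adjusted p 0.630 by limma). The promoter and the tallest site had lower heights with IL-4. The promoter region at +64 bp (chr11:11686085-11686412) had 11.41 and 12.99 against 9.81 and 4.04 (−0.71 ± 0.48, adjusted p 0.747 by limma). The intron 3 region at +44086 bp (chr11:11730100-11730541) had 25.30 and 32.58 against 22.84 and 13.06 (−0.56 ± 0.27, adjusted p 0.592 by limma). Without IL-4 replicate 2 the change was −0.23 at +64 bp and −0.31 at +44086 bp, and without control replicate 2 it was −0.29 at +44086 bp. After division by the median of each library the groups overlapped at +44086 bp and stayed apart at +64 bp. In the quantile-normalised heights they stayed apart at +44086 bp too, with 22.6 and 32.8 in control and 21.8 and 15.7 with IL-4.

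The tallest peaks named Ikzf2 lay at a distal site past the 3′ end of the gene, given to Ikzf2 by the authors' annotation. The region at +229131 bp (chr1:69456693-69456923) had the tallest peaks of the 87, with 32.75 and 38.55 in control and 35.45 and 32.97 with IL-4, and the groups overlapped (log2 change 0.04 ± 0.20 SE). The authors' annotation places its tallest peak on a simple repeat, (TTAGGG)n, whose part in the height was not tested. The region at −1313 bp (chr1:69687159-69687772) covers the RefSeq start of Ikzf2 and had 7.79 and 11.08 against 8.89 and 9.18 (0.21 ± 0.47). At −3229 bp (chr1:69689109-69689274) the heights were 5.57 and 9.01 against 7.80 and 9.05 (0.49 ± 0.51, adjusted p 0.862 by limma). None of the 4 Ikzf2 windows held the STAT6 letters.

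Gfi1 had no peak at its promoter or inside the gene, and its 4 regions lay in introns of the neighbouring gene Evi5. The nearest and highest, at −23927 bp (chr5:107749600-107749967), had 12.48 and no peak in control and 14.03 and 7.31 with IL-4, which overlap. The region at −38048 bp (chr5:107763781-107763985) had no peak and 3.78 in control and 8.91 and 6.43 with IL-4. The latter was apart between groups, and both windows held the STAT6 letters, as TTCTGAGGAA and TTCAACTGAA. The other Gfi1 regions had a peak in 1 control library each.

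To compare genes, the heights of a gene's regions were summed and given as a share of the summed height of the library, per 10000. Prdm1 had the largest share (3.92 and 4.37 in control, 4.59 and 4.35 with IL-4), followed by Zeb2 (2.57 and 2.73, 2.70 and 2.15). Both overlapped between groups, and the order Prdm1 above Zeb2 held in every library. Bcl6 had 1.87 and 1.87 in control and 1.69 and 1.67 with IL-4. Ikzf1 had 1.54 and 1.79 in control and 2.59 and 1.96 with IL-4. By these names Ikzf1 was below Bcl6 in both control libraries and above it in both IL-4 libraries. That order depends on the naming. A region in the last intron of Ikzf1 is named Fignl1 and left out, with 28.38 and 18.74 in control and 27.72 and 14.28 with IL-4. The deposited control sums were 72.6 and 71.92 for Ikzf1 and 88.27 and 75.3 for Bcl6. With that region counted, Ikzf1 would stand above Bcl6 in all 4 libraries. Ikzf2 had 0.977 and 1.46 against 1.41 and 1.58, and Gfi1, the lowest, 0.411 and 0.160 against 0.551 and 0.424. Most of the Ikzf2 sum came from the distal region at +229131 bp, whose tallest peak lies on a simple repeat. That region had 32.75 and 38.55 of deposited sums of 46.11 and 58.64 in control. With IL-4 it had 35.45 and 32.97 of 58.76 and 51.2. The groups did not overlap for Bcl6, Ikzf1 and Gfi1, where the exact permutation p was 0.333, the smallest possible, and it was 0.667 for the other genes and 0.667 for all 6 after Benjamini-Hochberg adjustment. The groups overlapped under some alternatives, namely for Bcl6 with peaks merged within 500 bp, within 100 kb of a TSS and as a number of peaks, for Ikzf1 with heights of 5 or more and as deposited sums, and for Gfi1 as deposited sums and as a number of peaks.

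**Figure D5:**
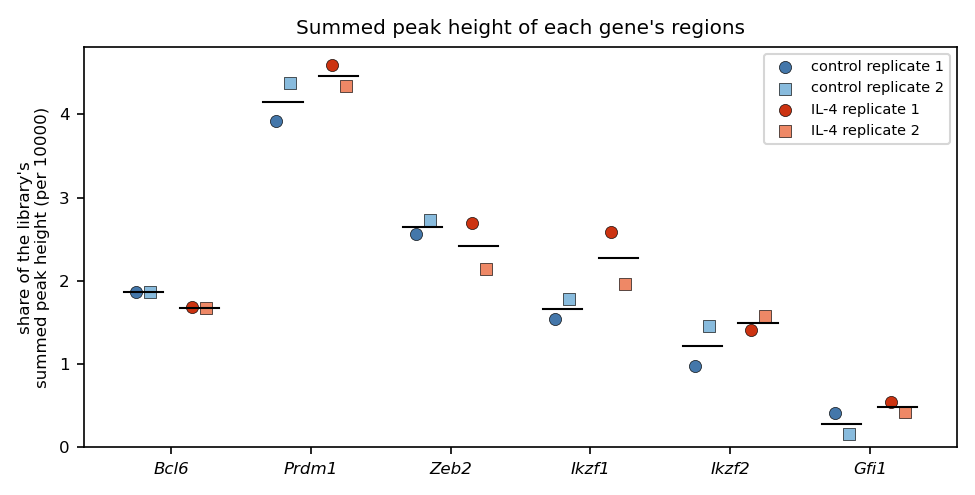
Share of each library's summed peak height that fell on the regions of a gene (vertical axis, per 10000), with control in blue, IL-4 in red, circles for replicate 1, squares for replicate 2 and black lines for group means. The groups do not overlap for Bcl6, Ikzf1 and Gfi1 and overlap for Prdm1, Zeb2 and Ikzf2.

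Such sums move with how much was called. The covered length of Ikzf1 was 1481 and 1588 bp in control and 2220 and 1942 bp with IL-4, while its mean height per region was 10.4 and 8.99 against 9.81 and 7.06. For Bcl6 the covered length was 2079 and 1611 bp against 1657 and 1558 bp and the mean height 7.36 and 7.53 against 6.41 and 5.41. For Gfi1 they were 431 and 289 bp against 412 and 354 bp, and 9.71 and 3.22 against 11.5 and 6.87. For Ikzf1 the covered lengths of the groups did not overlap and the mean heights did, while single sites such as those at +31655 and +4189 bp had taller peaks in both IL-4 libraries. Among 4060 genes with at least 5 regions, the genes whose shares moved most like a given repressor over the 4 libraries were Snx13 for Bcl6, Cysltr1 for Zeb2, Ccnl1 for Prdm1, Cnr1 for Ikzf1 and Cd200r1 for Gfi1, with root mean square distances of 0.01, 0.01, 0.02, 0.03 and 0.08 on the log2 scale. With 4 libraries such matches are common, as 364 genes came within 0.1 of Bcl6. For Gfi1 only Cd200r1 came within 0.1, and its distance was the largest of those given. The share of Gfi1 rested on 4 regions and ranged from 0.160 to 0.551. As distances were not scaled to a gene's range, this match is not read as a particular similarity.

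Relatives and corepressor partners of these proteins were examined in the same way. Of 29 such genes, 25 had a region, 107 in all, and none of the 52 fitted regions passed the limma test (lowest adjusted p 0.367, median log2 change −0.05). The list had 1 IL-4-only region, upstream of Bcor, a corepressor of BCL6 (5.34 and 2.49 in the IL-4 libraries). It had 4 control-only regions, 3 of which lay in introns of Ctbp2, the corepressor bound by ZEB proteins (5.27 and 12.29), of the demethylase gene Kdm1a (6.38 and 7.19) and of the BTB zinc finger gene Zbtb7a (5.88 and 5.62). The 10 known targets besides Bcl6 and Prdm1 had 68 regions, and none of the 27 fitted passed (lowest adjusted p 0.594, median −0.17). Among them an intron 2 region of Cdh1, which encodes E-cadherin, was IL-4-only (6.62 and 3.32), and regions at Bach2 (8.34 and 3.78), Ciita (6.96 and 3.78) and Id2 (5.67 and 5.42) were control-only. Over both lists 2 and 7 of 175 regions were IL-4-only and control-only (1.14% and 4.0%), where all regions gave 2.53% and 4.33%. With counts this small, neither share is read as a difference from all regions.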

How the data were processed

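ATAC-seq was analysed in 4 libraries, 2 control and 2 IL-4. The authors tagged nuclei with the Nextera kit, and the submitters' processing notes name BWA 0.7.10, SAMtools 0.1.19, MACS2 2.0.10 and HOMER 4.2 and the mm10 genome. Peaks were called in each library on its own, and blacklisted regions were removed. The deposited score has no stated unit. It was read as −log10 of the MACS2 q-value, since the lowest deposited scores were 1.3 and 1.32, close to −log10 of 0.05. The methods state a stricter limit, at which no score should lie under 2, yet 133 to 603 peaks a library did, so this reading remains uncertain. The files hold no reads, so depth is unknown and the authors' read-based test was not run. Any shift of reads by the Tn5 offset is not given in the sources used here.

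Peaks were merged at 1 bp overlap (bedtools 2.31.1 gave the same 60710 regions). Each region took the highest height per library. Regions in all 4 libraries were tested with limma 3.58.1 (R 4.3.3, quantile-normalised log2 height, eBayes with trend, Benjamini-Hochberg over 25442 regions, threshold 0.05), after the fit had been tested on simulated data. Single values per library were compared with exact two-sided permutation tests. Letters were read from GRCm38.p6. Regions were named by rule: for each gene the closest to the TSS, the highest, the largest increase and decrease and the group-only ones. Regions whose groups do not overlap were added after the values were seen. The genes and lists were chosen with earlier results of these data known. Alternatives covered scaling, the replicate block, the variance trend, height limits of 2 and 5, merging within 500 bp or at 50 bp overlap, a 100 kb limit, gene naming, and leaving out each library. Mitochondrial peaks were left out. Some genes of the marker, partner and similarity lists are not reported here.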

Additional observations from a re-analysis of the deposited data

How the results depend on the processing

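Of the counts, the limma calls were 0 of the repressor regions in either direction under every alternative run. The median log2 change of −0.08 became −0.31 without normalisation, where all regions had −0.21, and 0.080 within 100 kb of a TSS, and ranged from −0.148 to 0.033 with 1 library left out. IL-4-only regions numbered 2, and 1 within 100 kb, 11 with a peak tolerated in 1 control library (12.6%, against 7.15% of all regions), and 6 to 10 with 1 library left out. Control-only regions numbered 0, and 5 with a peak tolerated in 1 IL-4 library (5.75%, against 13.0%), and 2 to 9 with 1 library left out. Chosen after seeing the data, the counts of regions that did not overlap were 4 higher instead of 9 for peaks of height 5 or more. At that limit 19 repressor regions rather than 30 had a peak in every library. After division by the library's median 8 were lower instead of 13, where all such regions gave 21.0% instead of 29.3%. With 1 library left out the counts ranged from 10 to 15 higher and from 16 to 26 lower. These were 11.5 to 17.2% and 18.4 to 29.9% of the 87, against 9.57 to 19.3% and 23.9 to 36.5% of all regions. Without control replicate 1 the lower count was 24, and without control replicate 2 the counts were 15 and 26. Without IL-4 replicate 1 the lower count was 24, and without IL-4 replicate 2 the higher count was 15. Each of these sets 1 library against 2, and the cause of the moves was not tested. The stricter palindrome lowered the share of windows with STAT6 letters from 18.4% to 2.30% (1.04% of all regions) and the count among the 9 higher regions from 6 to 1.

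The changes of 3 of the 14 fitted regions named by rule turned sign. Without normalisation and with 1 library left out, Prdm1 at −107 bp gave −0.156 and from −0.192 to 0.343, Ikzf2 at −1313 bp gave −0.040 and from −0.153 to 0.547, and Ikzf2 at +229131 bp gave −0.056 and from −0.144 to 0.227. The values below 0 came without control replicate 2 (−0.192) or IL-4 replicate 1 (−0.079) at Prdm1, without control replicate 1 at both Ikzf2 sites and without IL-4 replicate 2 (−0.018) at the distal one. The other 11 kept their direction in every alternative run, and none of the 14 passed the threshold in any, but sizes moved, as Ikzf2 at −3229 bp went from 0.49 to 0.03 without control replicate 1 and Ikzf1 at +4189 bp from 1.05 to 0.60 without IL-4 replicate 1. For the summed height of a gene, IL-4 minus control, Zeb2 turned from −0.22 to 0.11 within 100 kb, to 0.5 as a number of peaks and to 0.055 without IL-4 replicate 2, with a range from −0.500 when 1 library was left out. Prdm1 turned from 0.32 to −14.7 for the deposited sums, and Ikzf2 from 0.28 to −0.5 and Gfi1 from 0.20 to 0 as a number of peaks. The cause of these changes was not tested.

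The labels share replicate numbers, but nothing says that they pair the libraries, and over 25442 regions the deviations of same-numbered libraries had a correlation of 0.00677. With the replicate block the median stayed at −0.08 and the calls at 0 higher and 0 lower, while calls over all regions went from 4 to 11 higher and from 2 to 3 lower. Limits are the 2 libraries a group, the unknown depth, and heights that grow with depth.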
